A study of Populus tremula x Populus alba with 14 samples.

Results

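Laccases are copper-containing oxidases secreted into the plant cell wall. They oxidise monolignols, the phenolic alcohols made by the phenylpropanoid pathway, to radicals that couple into lignin, and they do so in the walls of wood vessels, wood fibres and the phloem fibres of bark. The values below describe 10 poplar laccase genes that have been linked with lignin polymerisation. They were taken by identifier from a table of 41335 genes, and all 10 were present in it. The table pairs no identifier with a gene name, so the genes are called by their identifiers and no individual role is given to any of them.

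The plants were wild-type trees of the hybrid poplar clone INRA 717-1B4 (Populus tremula x Populus alba), grown in a greenhouse and kept outdoors for the growing season. Stems were sampled at 2 ages. Old stems were 6 to 8 mm thick and young stems 4 to 5.5 mm. Bark of each stem was divided into an outer layer, labelled phellem with phellogen (cork and the meristem that makes it), and an inner layer, labelled secondary phloem with vascular meristem. There were 4 old stems (numbered 1 to 4) and 3 young stems (numbered 1, 2 and 4), each with 1 outer and 1 inner library, which gives 14 RNA-seq libraries. All trees were of 1 clone, each layer holds several cell types, and the labels do not say that each stem came from its own tree, so the p-values reflect only how these samples vary, which may be technical. In such bulk samples fewer cells of a type and less RNA per cell cannot be told apart.

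Total counts ran from 11944485 to 15980636 per library. Both libraries of old stem 1 stood apart: the chi-square per degree of freedom over genes between them and the other old libraries of their layer was 92.6 to 149.5, against 17.4 to 36.2 among the others. Young stem 1 stood apart by less, at 59.3 to 77.3 against 20.5 to 26.1. Values of the old groups are therefore given with and without that stem where it matters. The cambium list, 5 genes used as markers of the vascular meristem, summed to 123.8 to 319.5 counts per 1000000 scaled library counts (CPM) in old inner bark and to 45.9 to 131.8 in old outer bark. In young bark it summed to 920.7 to 1271.9 in the inner and 516.9 to 702.6 CPM in the outer layer. Its genes were thus read in the outer layer as well, which its label does not name as holding vascular meristem.

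The laccases as a group were highest in young inner bark. Their summed level was 703.1, 766.2 and 705.0 CPM in the inner bark of young stems 1, 2 and 4, and 224.7, 246.8 and 300.9 CPM in their outer bark. In old stems 1, 2, 3 and 4 it was 4.27, 60.9, 283.5 and 130.2 CPM in inner bark and 2.51, 31.3, 118.8 and 39.9 CPM in outer bark. In this sum inner bark exceeded outer bark in each of the 7 stems. Its largest parts in young inner bark were Potri.010G193100, Potri.006G087100 and Potri.008G073800, with means of 230.0, 228.6 and 160.0 CPM. The sum therefore says little of the scarcer genes, which are described below. Old stem 1 was lowest in both layers, with 51 laccase counts in its inner and 36 in its outer library, and old stem 3 was highest among the old stems. Genes of unequal length collect unequal counts, and no gene lengths were used, so levels are compared between samples and not between genes.

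**Figure D1:**
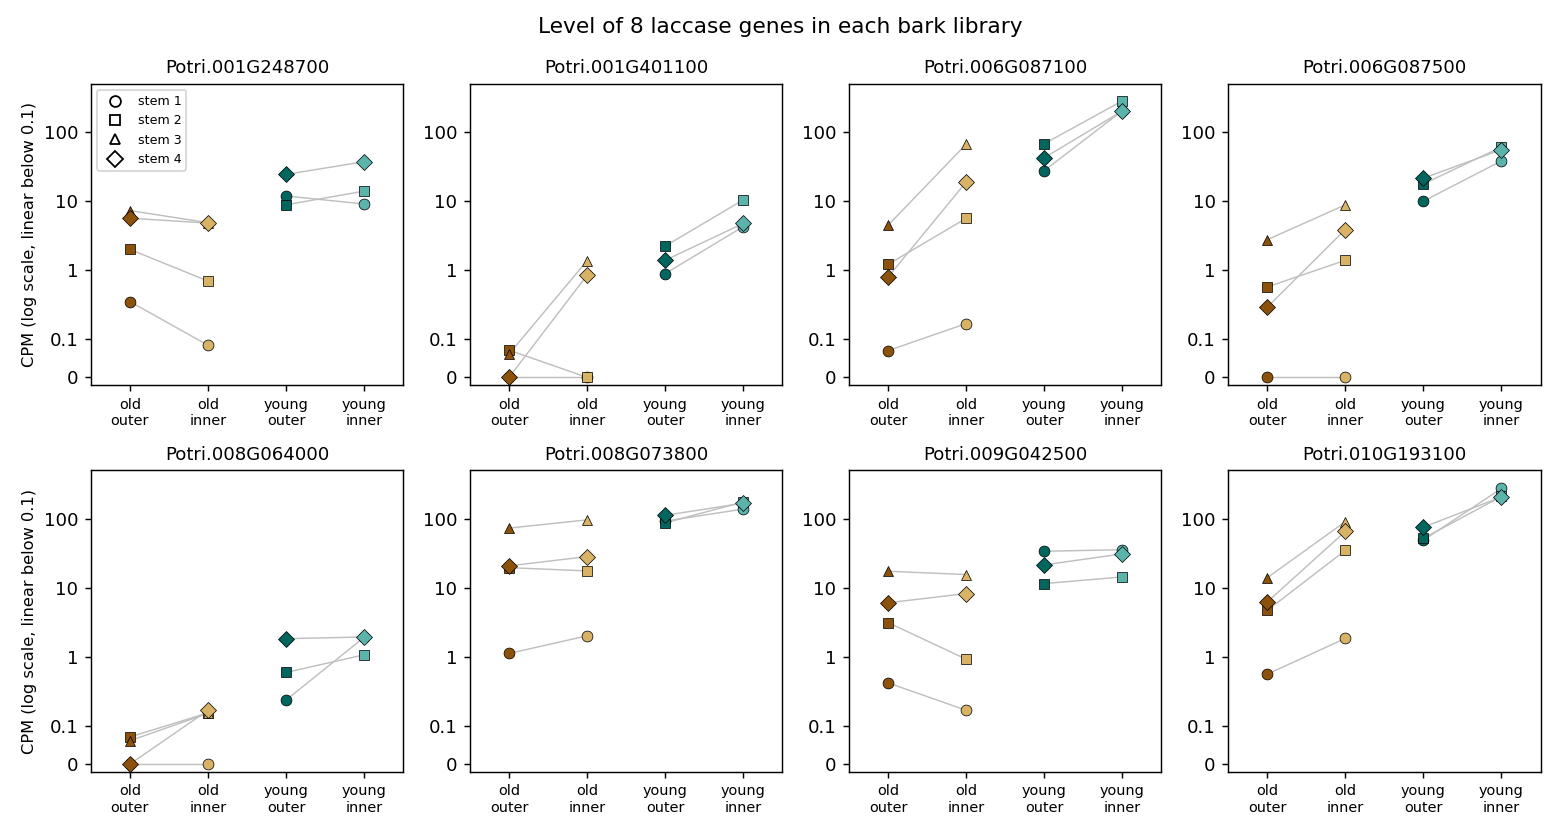
CPM of the 8 laccases that passed the low-count filter in each library, on a scale that is logarithmic above 0.1 CPM and linear below; marker shapes are stem numbers and grey lines join the layers of a stem. Old stem 1 (circles) lies lowest or level with the lowest among the old libraries in every panel, and every gene but Potri.009G042500 has all old libraries below all young ones within each layer, as 20% of all tested genes do in outer and 18.5% in inner bark.

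Of the 10 genes, 8 passed the filter on low counts and were tested. The other two, Potri.001G206200 and Potri.006G094100, are described last. A gene that is high in 1 group only passes such a filter through that group, so counts over the tested genes are given as descriptions. Tests compared group means with edgeR's quasi-likelihood F test, with p-values adjusted by the Benjamini-Hochberg method over all 27673 tested genes, and a call means an adjusted p under 0.05. Because the stem numbers were taken to pair the layers, the layer contrasts were also fitted with each stem as a block, and both values are given.

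Potri.010G193100 was higher in inner than in outer bark in every stem. In the inner bark of old stems 1, 2, 3 and 4 it was at 1.84, 34.7, 90.5 and 65.3 CPM (48.1 ± 38.3, SD, n = 4). In their outer bark it was at 0.557, 4.68, 13.9 and 6.20 CPM (6.33 ± 5.57, SD, n = 4). The old groups overlapped all the same, because the inner value of old stem 1 lay below 3 of the outer values. Young inner bark held 273.7, 209.6 and 206.7 CPM (230.0 ± 37.9, SD, n = 3) and young outer bark 48.6, 51.9 and 75.1 CPM (58.6 ± 14.5, SD, n = 3). The young layers did not overlap.

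The outer-minus-inner log2 fold change of Potri.010G193100 was -2.92 ± 0.93 (SE) in old stems, with an adjusted p of 0.0678 by edgeR from group means and of 3.297e-05 with stems as blocks. Without old stem 1 the log2 fold change was again -2.92, with an adjusted p of 0.00345 from group means. In young stems the log2 fold change was -1.97 ± 1.02 (SE), with an adjusted p of 0.452 from group means and of 0.000481 with stems as blocks.

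The ratio of inner to outer CPM within a stem shows how far the genes shared this layer difference. For Potri.010G193100 it ran from 2.75 to 10.5 over 7 stems, with a median of 5.63. For Potri.006G087100 it ran from 4.19 to 23.7 over the 6 stems with at least 10 counts in both layers together, with a median of 6.08, and for Potri.006G087500 from 2.43 to 13.4 over 6 stems, with a median of 3.32. Inner bark was the higher layer in every one of those stems. Potri.001G401100 was higher in inner bark in 5 of 5 stems with at least 10 counts, by 3.40 to 22.3 times in the 4 where the outer count was not 0.

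Potri.008G073800, Potri.009G042500 and Potri.001G248700 were nearer to even between the layers, with median ratios of 1.50, 1.15 and 0.807. Which layer was higher varied between stems. Potri.008G073800 was higher in inner bark in 6 of 7 stems, at ratios of only 0.897 to 2.01. Potri.009G042500 was higher there in 4 of 6 stems (0.295 to 1.44) and Potri.001G248700 in 2 of 6 (0.348 to 1.58). In each of the 7 stems the ratio of Potri.010G193100 exceeded that of Potri.008G073800, by 1.83 to 8.26 times; as this pair was chosen after its values were seen, no test was made.

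**Figure D2:**
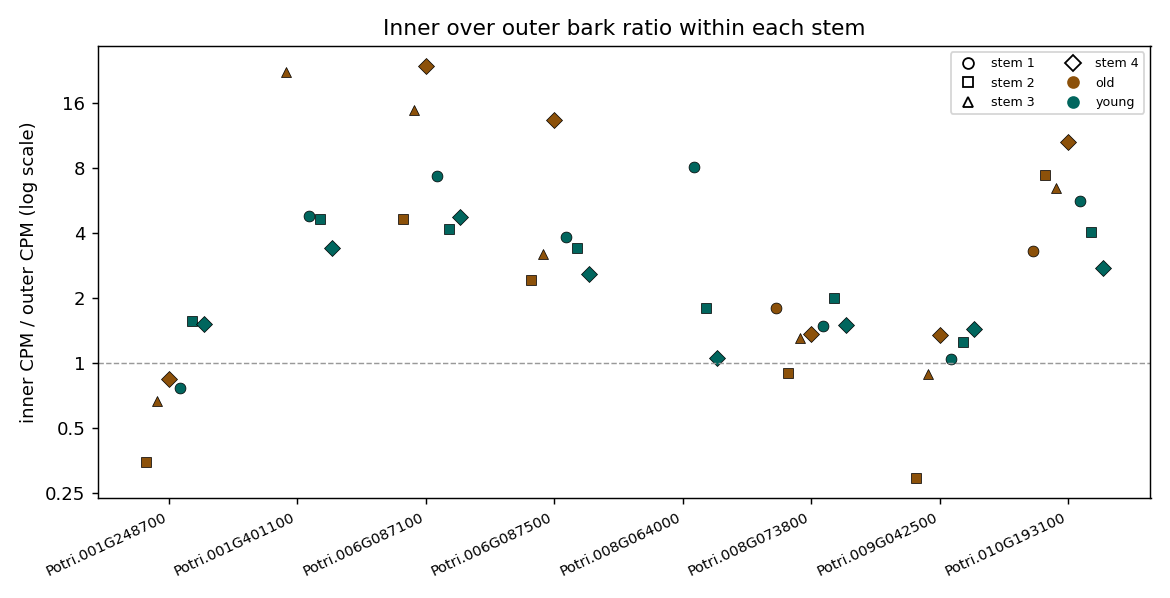
Ratio of inner to outer CPM within each stem on a log scale, for stems with at least 10 counts of the gene in both layers together and an outer count above 0; shapes are stem numbers and colours are ages. All ratios of Potri.010G193100, Potri.006G087100, Potri.006G087500, Potri.001G401100 and Potri.008G064000 lie above 1, while Potri.001G248700, Potri.008G073800 and Potri.009G042500 have stems on both sides.

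Potri.006G087100 had its highest levels in young inner bark, too. It was at 203.0, 281.8 and 201.0 CPM in the inner bark of young stems 1, 2 and 4 (228.6 ± 46.1, SD, n = 3) and at 27.4, 67.3 and 42.2 CPM in their outer bark (45.6 ± 20.2, SD, n = 3). Old stems 1 to 4 held 0.167, 5.60, 66.5 and 18.8 CPM in inner bark (22.8 ± 30.2, SD, n = 4) and 0.0697, 1.21, 4.45 and 0.793 CPM in outer bark (1.63 ± 1.94, SD, n = 4). The young layers did not overlap, and old stem 3 alone held 880 of the 1179 old inner counts.

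The outer-minus-inner log2 fold change of Potri.006G087100 was -3.78 ± 1.22 (SE) in old stems, with an adjusted p of 0.0716 by edgeR from group means, 8.098e-05 with stems as blocks and 0.0201 from group means without old stem 1. In young stems it was -2.32 ± 1.27 (SE), with an adjusted p of 0.485 from group means and 0.000428 with stems as blocks.

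Potri.006G087500 varied with Potri.006G087100 more closely than any other pair of the tested laccases did, with Pearson's r of 0.987 in log2 CPM over 14 libraries and 0.983 after group means were removed. The layers of a stem are not independent and both genes share each library's depth, so r is a description only. Young inner bark held 38.0, 60.5 and 55.3 CPM of it (51.3 ± 11.8, SD, n = 3) and young outer bark 9.91, 17.6 and 21.3 CPM (16.3 ± 5.82, SD, n = 3). In old stems 1 to 4 it was at 0, 1.38, 8.77 and 3.86 CPM in inner bark (3.50 ± 3.86, SD, n = 4) and at 0, 0.567, 2.74 and 0.288 CPM in outer bark (0.899 ± 1.25, SD, n = 4). Its layer difference was a log2 fold change of -1.92 ± 1.08 (SE) in old stems (adjusted p of 0.343 by edgeR from group means, 0.00244 with stems as blocks) and of -1.65 ± 1.12 in young stems (0.611 and 0.00106).

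Potri.001G401100 was scarce, and its old libraries rest on few counts. The outer bark of old stems 1 to 4 gave 0, 1, 1 and 0 counts, and the inner bark 0, 0, 18 and 10 counts. Summed over the 4 stems this is 28 inner against 2 outer counts, a ratio of 16.4 with a 95% counting interval of 4.14 to 142.1 (exact Clopper-Pearson, counting error only), carried by old stems 3 and 4. In young stems it was at 4.24, 10.4 and 4.71 CPM in inner bark (6.44 ± 3.40, SD, n = 3) and at 0.885, 2.22 and 1.38 CPM in outer bark (1.50 ± 0.67, SD, n = 3), without overlap. With stems as blocks the adjusted p by edgeR was 0.00864 in old and 0.00259 in young stems, against 0.0972 and 0.364 from group means.

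Counted over the tested genes, group means gave no called laccase by edgeR for the layers of old stems (0 of 8). An unadjusted p under 0.05 was reached by 3 of 8, and by 6293 of all 27673 tested genes. Over all genes edgeR called 5.07% lower and 5.31% higher in outer bark. DESeq2 called 3 laccases and limma voom 0, where 16.4% and 8.17% of all genes were called in either direction. With stems as blocks 4 of 8 were lower in outer bark and none higher, against 20.4% of all genes lower and 18.8% higher. In young stems group means called 0 of 8 by edgeR, where 0.0614% of all genes were called lower and 0.325% higher. An unadjusted p under 0.05 was reached by 1 of 8, near the share over all genes (3595 of 27673). DESeq2 and limma voom also called 0 laccases, where 4.71% and 0.394% of all genes were called in either direction. With stems as blocks 5 of 8 were lower in young outer bark, against 14.7% of all genes, and the fifth was Potri.008G073800 at a log2 fold change of -0.72 ± 0.13 (SE, adjusted p = 0.00339). CPM values of outer bark lay wholly below those of inner bark for 5 of 8 laccases in young stems, where 12.2% of all genes did so, and for 0 of 8 in old stems, where 7.27% did.

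The median log2 fold change of outer against inner bark over the 8 laccases was -1.75 in old and -1.27 in young stems from group means, beside -0.01 and 0.01 over all tested genes. Leaving out the inner library of old stem 1 raised the calls in old stems from 0 to 3, where 11.3% of all genes were called in either direction, and leaving out that of old stem 2 raised them to 1, where 7.42% were. Without both libraries of old stem 1 there were 2 calls in old stems (14.5% of all genes) and 1 in young stems (3.83% of all genes), Potri.010G193100.

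Old stems differed from young stems in the same direction in both layers: the fitted level of each of the 8 tested genes was lower in old bark. In outer bark 5 of 8 were called lower in old stems and none higher, where 13.5% of all genes were lower and 8.5% higher. In inner bark 3 of 8 were called lower and none higher, where 14.9% were lower and 14.2% higher, and 6 of 8 had an unadjusted p under 0.05, as did 11588 of all 27673 tested genes. The median log2 fold change of old against young was -3.67 in outer and -3.13 in inner bark, beside -0.01 and 0.03 over all tested genes. Old CPM values lay wholly below young ones for 7 of 8 laccases in outer bark (20% of all genes) and for 7 of 8 in inner bark (18.5% of all genes), the exception in both layers being Potri.009G042500. Potri.008G064000 and Potri.001G401100 are among the calls in both layers. The former had at most 2 counts in any old library, the latter at most 1 in old outer bark. Both passed the filter only with the young libraries counted, as 6 laccases without them passed it on old libraries alone. For such genes a lower old level goes with being tested. Their part in the counts, medians and non-overlap is therefore a description and no added evidence that the group was lower in old bark.

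**Figure D3:**
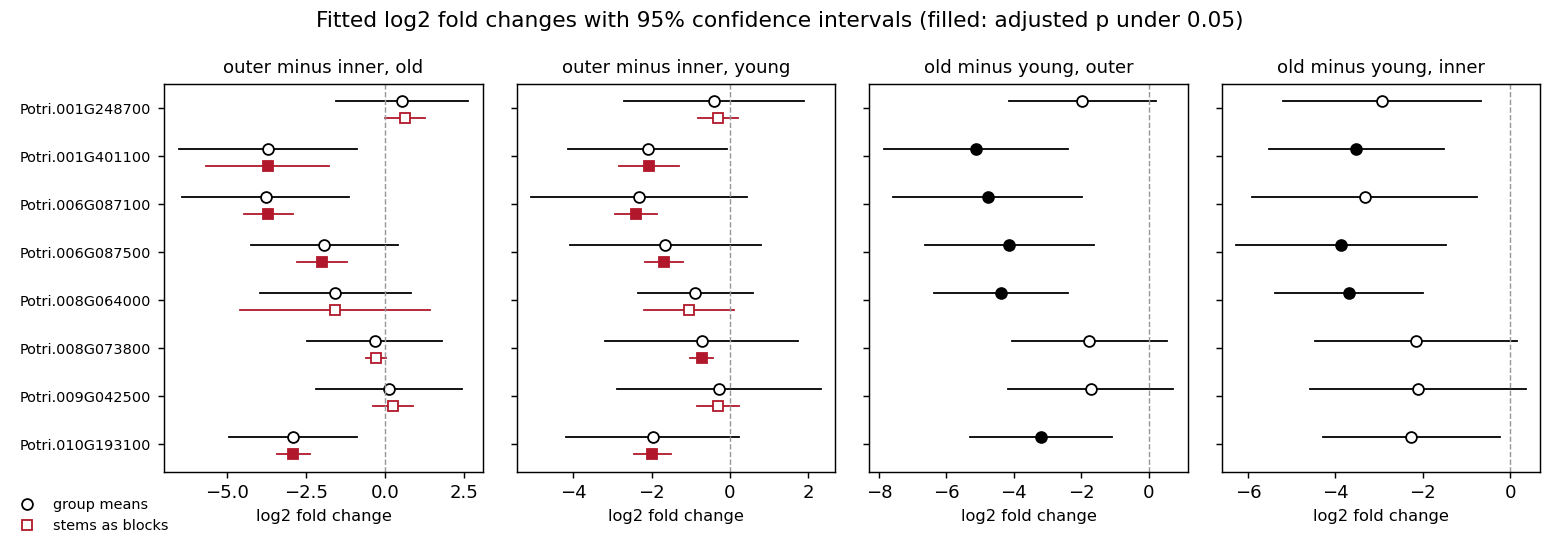
Fitted log2 fold changes of the 8 tested laccases with 95% confidence intervals in 4 contrasts, from group means (black circles) and, for the layers, with stems as blocks (red squares); filled symbols have an adjusted p under 0.05. With blocks the layer intervals of Potri.010G193100 lie wholly below 0 at both ages, and all age values lie below 0, with 5 filled in outer and 3 in inner bark.

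From group means the genes called lower in old outer bark were Potri.010G193100, Potri.006G087100, Potri.006G087500, Potri.001G401100 and Potri.008G064000. Potri.010G193100 fell by 3.20 ± 0.97 on the log2 scale (SE, adjusted p = 0.0348 by edgeR). Potri.006G087100 fell by 4.78 ± 1.29 (adjusted p = 0.0225) and Potri.006G087500 fell by 4.13 ± 1.16 (adjusted p = 0.0256). For Potri.001G401100, with 2 counts in old and 67 in young outer bark, the count ratio of young to old was 42.5 with a counting interval of 11.3 to 357.7 (adjusted p of the fit 0.0150). With the stem as a random effect in limma voom, Potri.006G087500 alone of these 5 kept its call (adjusted p = 0.0244). The calls of Potri.010G193100, Potri.006G087100, Potri.001G401100 and Potri.008G064000 were lost, at adjusted p of 0.0871, 0.0904, 0.0634 and 0.0588 in limma voom.

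Potri.008G064000 was read at few counts in every library. Old outer bark gave 0, 1, 1 and 0 counts in stems 1 to 4 and old inner bark 0, 2, 2 and 2 counts, all at or under the 3 counts taken as the detection floor of a library. Young stems 1, 2 and 4 gave 4, 8 and 29 counts in outer bark (0.884 ± 0.834 CPM, SD, n = 3) and 32, 14 and 25 counts in inner bark (1.64 ± 0.49 CPM, SD, n = 3). Young outer bark thus exceeded old outer bark by a count ratio of 26.0 (counting interval 6.75 to 221.7), and the fitted adjusted p by edgeR was 0.00752 in outer and 0.00546 in inner bark. Leaving out the outer library of young stem 4, which held 29 of the 41 young outer counts, moved the outer log2 fold change from -4.39 to -3.28.

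The genes called lower in old inner bark were Potri.006G087500 (log2 fold change -3.86 ± 1.11, SE, adjusted p = 0.0222), Potri.001G401100 (-3.52 ± 0.92, adjusted p = 0.0150) and Potri.008G064000 by the p given above. Potri.001G248700, Potri.006G087100 and Potri.010G193100 lay just past the threshold at adjusted p of 0.0512, 0.0524 and 0.0861 by edgeR. Without old stem 1 all 3 were called, at log2 fold changes of -2.54, -2.92 and -1.87 and adjusted p of 0.0264, 0.0184 and 0.00712, which gave 6 calls, where 40% of all genes were called in either direction.

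The number of age calls depended on single libraries. In outer bark it fell from 5 to 2 without the outer library of old stem 2, old stem 4, young stem 2 or young stem 4. The share of all genes called in either direction fell there too, from 22% to 14.8%, 14.8%, 11% and 9.66% in that order. In inner bark it fell from 3 to 1 without the inner library of young stem 2 and to 2 without that of young stem 4 or old stem 2, and it rose to 6 without the outer library of old stem 1 and to 5 without the inner library of old stem 3. The share of all genes called there was 29.1% with all libraries. In these settings, in the order given, it was 17.7%, 16.2%, 20.8%, 35.8% and 26.1%. Leaving out the outer library of old stem 3 moved the outer log2 fold change of Potri.006G087100 to -6.03, of Potri.006G087500 to -5.80 and of Potri.010G193100 to -3.94, and leaving out its inner library moved the inner value of Potri.001G401100 to -4.50 and of Potri.006G087500 to -4.87. A fit in limma voom with the stem as a random effect, which keeps the layers of a stem together in an age contrast, called 3 of 8 in outer bark, where 20.3% of all genes were called in either direction, and 8 of 8 in inner bark, where 25.5% were. Its outer calls were Potri.006G087500, Potri.008G073800 (adjusted p = 0.0412) and Potri.009G042500 (adjusted p = 0.0491), so the last-named pair was called there and not from group means.

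Potri.008G073800 was not called between ages from group means, though the random-effect fit called it in both layers. In old stems 1 to 4 it was at 1.11, 19.5, 73.0 and 20.7 CPM in outer bark (28.6 ± 30.9, SD, n = 4) and at 2.01, 17.5, 95.9 and 28.2 CPM in inner bark (35.9 ± 41.4, SD, n = 4). Young stems held 92.1, 86.7 and 111.7 CPM in outer bark (96.9 ± 13.1, SD, n = 3) and 137.8, 174.8 and 167.4 CPM in inner bark (160.0 ± 19.6, SD, n = 3). Old stem 3 came near the young values and old stem 1 was far below them, so the spread among old stems was as large as their mean. The log2 fold change of old against young was -1.76 ± 1.06 (SE, adjusted p = 0.248 by edgeR) in outer bark and -2.15 ± 1.07 (adjusted p = 0.145) in inner bark, with 95% intervals of -4.06 to 0.54 and -4.47 to 0.16.

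Potri.009G042500 and Potri.001G248700 were not called between layers at either age with all 14 libraries. Potri.009G042500 was at 0.418, 3.12, 17.3 and 6.05 CPM in the outer bark of old stems 1 to 4 and at 0.167, 0.920, 15.5 and 8.21 CPM in their inner bark. Young stems 1, 2 and 4 held 33.7, 11.5 and 21.4 CPM in outer and 35.4, 14.3 and 30.9 CPM in inner bark, so old stem 3 lay above young stem 2 in both layers. Its outer-minus-inner log2 fold change was 0.12 ± 1.06 (SE) in old and -0.28 ± 1.20 in young stems, with 95% intervals of -2.19 to 2.43 and -2.88 to 2.33; with stems as blocks these narrowed to -0.40 to 0.88 and -0.84 to 0.23.

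Potri.001G248700 was at 0.348, 1.98, 7.25 and 5.62 CPM in the outer bark of old stems 1 to 4 and at 0.0837, 0.690, 4.84 and 4.78 CPM in their inner bark. Young stems held 11.8, 8.80 and 24.2 CPM in outer and 9.02, 13.9 and 37.0 CPM in inner bark. Outer bark was thus the higher layer in all 4 old stems and in young stem 1, while inner bark was higher in young stems 2 and 4. With stems as blocks the outer-minus-inner log2 fold change was 0.64 ± 0.29 (SE) in old stems (adjusted p = 0.110 by edgeR) and -0.31 ± 0.23 in young stems (adjusted p = 0.332). Without stem 1 of either age these became 0.59 (adjusted p = 0.0458) and -0.63 (adjusted p = 0.0240), the one case in which a laccase was called higher in outer bark.

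Whether the layer difference itself changed with age was tested by the interaction, old minus young. From group means 0 of 8 laccases were called by edgeR, with 0 at an unadjusted p under 0.05, and 0 by DESeq2 or limma voom. Of all genes 0% were called by edgeR and limma voom and 0.159% by DESeq2. DESeq2 gave no adjusted p for Potri.008G064000 in this contrast. With stems as blocks 0 of 8 were called, with 4 at an unadjusted p under 0.05 (7387 of 27673 over all genes), where 6.99% of all genes were called with a lower and 3.27% with a higher layer difference in old stems. The lowest adjusted p in that fit were 0.0868 for Potri.006G087100 (log2 difference -1.31 ± 0.42, SE) and 0.0898 for Potri.010G193100 (-0.93 ± 0.30). Without stem 1 of either age the blocked fit called 3 of 8, where 13.1% of all genes were called, namely Potri.010G193100 at -1.23 (adjusted p = 0.0205), Potri.006G087100 at -1.59 (adjusted p = 0.0369) and Potri.001G248700 at 1.22 (adjusted p = 0.0222). The former pair then had a larger inner excess in old than in young stems and Potri.001G248700 the opposite.

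The tables the authors deposited with their own comparison of layers list 7 of the laccases for old stems and 9 for young stems. In the authors' deposited table for old stems the adjusted p from edgeR was 0.0092 for Potri.010G193100, 0.013 for Potri.006G087100 and 0.08 for Potri.001G401100, while the adjusted p from DESeq in the authors' deposited table was 0.14, 0.52 and 0.48. In the authors' deposited table for young stems the adjusted p from edgeR was 8.5e-05 for Potri.006G087100, 0.00026 for Potri.010G193100, 0.0032 for Potri.006G087500 and 0.014 for Potri.001G401100. From DESeq the authors' deposited table gives 3.7e-06, 0.00011, 0.0037 and 0.15 for them in that order. All of these are higher in inner bark there, by log2 fold changes between 1.65 and 3.77 in the authors' deposited tables. For old stems Potri.006G087500 had an adjusted p of 0.4 from edgeR and 0.83 from DESeq there. The other way, inner-minus-outer log2 fold changes were -0.577 for Potri.001G248700 and -0.146 for Potri.009G042500 in old stems. In young stems that of Potri.006G094100 was -6.209.

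The tested laccases varied together from library to library. Over 14 libraries the 28 pairs had Pearson's r of 0.676 to 0.987 in log2 CPM, with a median of 0.865, and after group means were removed 0.268 to 0.983, with a median of 0.849. The lowest value over all libraries belonged to Potri.008G064000 with Potri.009G042500. Old stem 1, low in all of them, and the layers of a stem enter each r. Of all tested genes, the one most like the mean standardised profile of the 8 laccases was Potri.007G045200 (r = 0.995 over 14 libraries), followed by Potri.006G131000 (r = 0.994). Most like Potri.010G193100, taken as the laccase whose mean CPM, not scaled for gene length, was highest, were Potri.001G280200 (r = 0.997) and Potri.006G120400 (r = 0.992). Potri.001G280200 had mean levels of 3.93 CPM in the outer and 45.4 CPM in the inner bark of old stems, and of 62.6 and 223 CPM in those layers of young stems.

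Other genes of wall formation and of the vascular meristem were read beside the laccases from 4 lists: 5 cellulose synthases of the secondary wall, the 5 cambium genes, 23 genes of the monolignol pathway, which makes the substrates of laccases, and 6 MYB and NAC regulators of the secondary wall. The lists rest on identifiers from background knowledge that the files do not annotate. The cellulose synthases summed to 10.3 to 383.0 CPM in the outer and 20.2 to 1434.2 CPM in the inner bark of old stems, and to 855.3 to 1228.5 and 2460.3 to 3598.1 CPM in those layers of young stems. Old stem 1 was lowest in its group in all 4 lists. The part of these lists in the laccase values was not tested.

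With stems as blocks all 5 cellulose synthases were called lower in outer bark at both ages by edgeR, as were 14 of 23 monolignol genes in old and 19 of 23 in young stems, with 1 called higher in young outer bark. Of the 6 regulators 4 were called lower in old and 5 in young outer bark. Of the 5 cambium genes 4 were called lower and 1 higher in old outer bark, and 3 lower in young outer bark. Over all tested genes 20.4% were called lower and 18.8% higher in old outer bark, and 14.7% lower and 18.6% higher in young outer bark. Between ages, all 5 cambium genes were called lower in old stems in both layers, with a median log2 fold change of -2.70 in outer and -2.10 in inner bark. Of the cellulose synthases 1 of 5 was called lower in old outer bark (5 of 5 at an unadjusted p under 0.05) and 0 of 5 in old inner bark by edgeR (1 of 5 at an unadjusted p under 0.05), with median log2 fold changes of -2.65 and -2.19. Of the regulators 1 of 6 was called lower in each layer, with medians of -2.14 and -1.99, and of the monolignol genes 6 of 23 in outer and 12 of 23 in inner bark, with 1 called higher in inner bark. Over all tested genes 13.5% were called lower and 8.5% higher in old outer bark, and 14.9% lower and 14.2% higher in old inner bark. The 1 of 6 regulators was near these shares. An unadjusted p under 0.05 by edgeR was reached by 10267 of all 27673 tested genes in outer and by 11588 in inner bark. Summed monolignol levels of old and young stems overlapped in both layers, at 1243.6 to 6080.0 against 3461.5 to 4367.6 CPM in outer and 1345.6 to 8371.7 against 6687.1 to 8681.7 CPM in inner bark. Summed levels of the laccases, the cellulose synthases, the cambium genes and the regulators did not overlap between ages in either layer. Of single tested genes, 20% in outer and 18.5% in inner bark had all old values below all young ones.

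**Figure D4:**
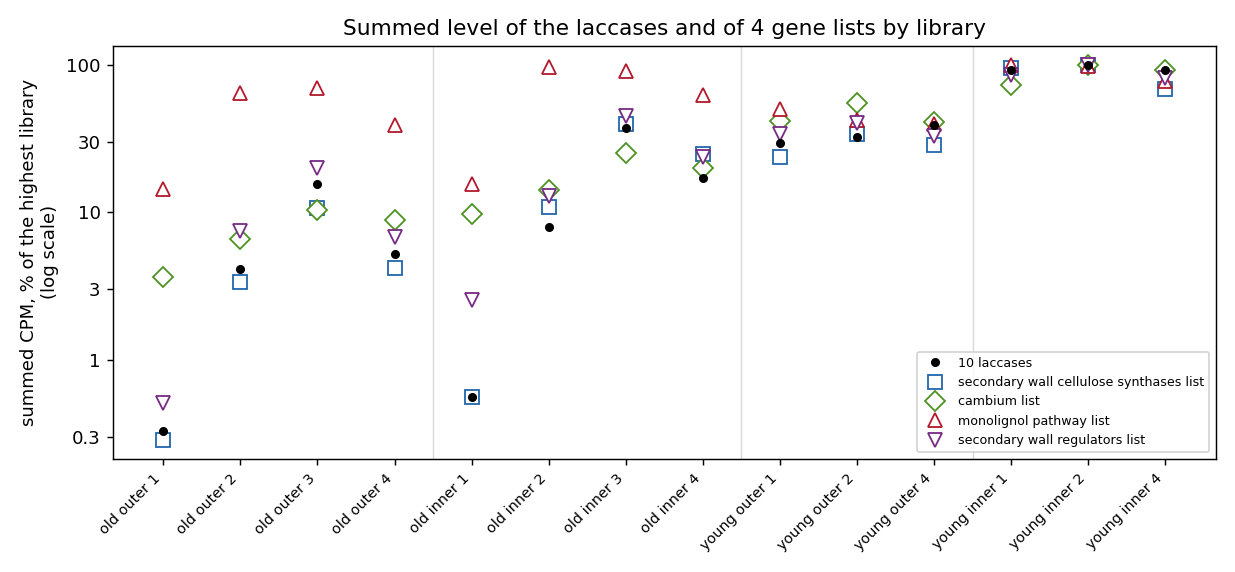
Summed CPM of the 10 laccases and of 4 gene lists in each library, as a percentage of the highest library of each list, on a log scale. The laccases (black) lie lowest in both libraries of old stem 1, at 2.51 and 4.27 summed CPM, and highest in the young inner libraries, at 703.1 to 766.2 summed CPM.

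Potri.006G094100 and Potri.001G206200 were too scarce to test. Potri.006G094100 was read in outer bark only: 0, 1, 2 and 4 counts in old stems 1 to 4 and 0, 2 and 27 counts in young stems 1, 2 and 4, and 0 counts in all 7 inner libraries. A count of 0 allows up to 3 counts over a group, or 0.0598 CPM in old inner and 0.0701 CPM in young inner bark, and young stem 4 alone held 27 of the 29 young counts. In the authors' deposited table for young stems its adjusted p was 0.05 from edgeR and 0.86 from DESeq. Potri.001G206200 gave 1 count in the outer bark of old stem 2 and 1 in the inner bark of old stem 4, and none in any other library, so no difference was detectable at this depth.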

How the data were processed

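RNA of 14 bark libraries was sequenced on an Illumina HiSeq2000 with an unstranded protocol, per the labels. The authors deposited a table of raw counts per gene, which holds values for 41335 identifiers, and tables of their own comparisons of layers with log2 fold changes and adjusted p-values. Tools listed in the submitters' processing notes are Bowtie, Cufflinks, HTSeq, TopHat, Trimmomatic, CASAVA, edgeR and DESeq, and the genome build was not given in these sources. Without strand, reads of overlapping antisense genes cannot be told apart, and reads of near-identical genes may have been split.

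Counts were analysed as deposited with edgeR 4.0.16 in R 4.3.3: TMM factors, filterByExpr (27673 genes kept, 13662 removed), and a robust quasi-likelihood F test on 4 group means with 10 residual degrees of freedom. CPM uses the summed counts of tested genes, scaled by TMM, and log2 CPM a prior count of 2. Benjamini-Hochberg adjustment ran over all tested genes. The block fit, with a term per stem, had 5 residual degrees of freedom; stems are nested in age, so age contrasts have a random-effect fit only (limma 3.58.1, within-stem correlation 0.781). Group means treat the layers of a stem as independent. Stem numbers come from the sample titles. They were taken to pair the layers. The deviations of same-numbered libraries from their group means correlated at 0.596 to 0.823. Among libraries of the other layer at its age, each library correlated best with its own number. These correlations cannot tell a shared stem from anything else that same-numbered libraries shared. The leading number in the title of the young inner library of stem 4 breaks the run of the other titles.

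The laccases, the 4 gene lists and the tests were chosen with earlier results of these data known. All 10 laccases are named. Genes alike in pattern are the tested genes with the highest Pearson's r, of which 2 are named per profile because no gene names were given. Lists of other laccases, sieve elements and cork needed gene descriptions and were not analysed here. Alternatives were RLE and upper-quartile factors, DESeq2 1.42.0, limma voom, no filter, a filter of 1 CPM in 3 libraries, only the groups compared, CPM from total counts, and leaving out libraries or stem 1. The fits were also run on simulated counts with a common spread for all genes and no outlying stem. Those runs do not cover a spread like that among the old stems. Counting intervals are at the 95% level, and they and the floor of 3 counts cover counting error only.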

Additional observations from a re-analysis of the deposited data

Results flagged for a closer look

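Potri.008G064000 in old inner bark had 1 library set apart from the other three of its group: old stem 1 was at 0 CPM, while old stems 2, 3 and 4 held 2 counts each. The gap is 2 counts, within the 3 counts that a count of 0 allows in a library. It was the only one of 18 groups of 4 libraries examined in which a library stood apart in this way, and chance marks about 1 in 20 groups. No laccase passed the threshold for a layer difference that changed with age from group means.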

How the results depend on the processing

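The replicate block, in which the stem numbers pair the layers, changed most layer calls: 4 of 8 laccases in old and 5 in young stems, against 0 from group means. Over all genes the block called 39.2% in old and 33.3% in young stems, against 10.4% and 0.387% from group means. With the block and RLE factors the counts were 4 and 5, with the stem as a random effect 1 and 5, and with the block but without stem 1 of both ages 5 and 6, where 3 were called for the interaction. In that order the shares of all genes called were 39% and 34.8%, 34.9% and 29.4%, and 39.6% and 35%, with 13.1% for the interaction. The block with RLE factors or without stem 1, and leaving out old stem 1 alone, were chosen after seeing the data. From group means, old stems gave 3 calls by DESeq2 (16.4% of all genes), 2 without stem 1 of both ages (18.7%) and 2 without old stem 1 (14.5%). With 1 library left out they gave 0 to 3 calls (5.62% to 12.5% of all genes). Young stems gave 1 without old stem 1 (3.83% of all genes). Outer bark age calls (5, where 22% of all genes were called) became 3 with the random effect (20.3%) and 2 to 5 with 1 library left out (9.66% to 26.5%). Inner bark age calls (3, where 29.1% of all genes were called) became 5 with RLE factors (28.3%), 6 by DESeq2 (36.1%), 7 by limma voom (28%) and 8 with the random effect (25.5%). They became 6 without stem 1 of both ages (47.1%), 6 without old stem 1 (40%), and 1 to 6 with 1 library left out (16.2% to 35.8%). All age log2 fold changes of the 8 tested laccases kept their sign under the alternatives run for them, 24 each and 23 for Potri.008G064000 in outer bark.

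Signs turned only for values that were not called from group means with all 14 libraries. Among them, the interaction of Potri.006G087100 and the young layer difference of Potri.001G248700 were called in the blocked fit without stem 1 of both ages. The interaction turned by limma voom and with the random effect for Potri.001G401100 (0.22 and 0.22), Potri.006G087500 (0.028 and 0.022) and Potri.008G064000 (0.094 and 0.11). With 1 library left out, the interaction ran from -2.71 to 0.024 for Potri.006G087100, from -1.93 to 0.74 for Potri.006G087500, from -1.15 to 0.40 for Potri.008G064000, from -0.66 to 1.57 for Potri.008G073800 and from -0.68 to 1.40 for Potri.009G042500. The old layer difference ran from -1.38 to 0.84 for Potri.008G073800 and from -0.96 to 1.12 for Potri.009G042500, and the young one from -0.71 to 0.020 for Potri.009G042500 and from -0.95 to 0.39 for Potri.001G248700. Apart from settings that leave out libraries, the cause was not tested. Depth limits Potri.001G206200, Potri.006G094100, Potri.008G064000 and the old libraries of Potri.001G401100, which rest on few counts.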
